A study of Mus musculus with 4 samples.

Results

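The genes described here are 34 genes of the p53 pathway and of the DNA damage response, measured in airspace cells of wild-type and S1pr2-/- mice that had been given bleomycin. They were found by the RefSeq accession carried by each non-control probe of the array, and a gene with several probes was represented by its brightest one. All 34 were found among the 20832 genes that could be named, with 42 probes between them, and 8 members had 2 probes. S1pr2 encodes the sphingosine-1-phosphate receptor S1PR2, and the study asked how its loss alters the lung's response to bleomycin. RNA came from BALF cells, the cells washed out by bronchoalveolar lavage, on 4 one-color arrays, 2 per genotype. Wild-type and S1pr2-/- mice were young adult littermates of a mixed background backcrossed to C57BL/6J, and the mutation was present in every tissue. Every mouse on these arrays had received repeated bleomycin by intraperitoneal injection, 0.035 U/g each time, and the labels place the collection on day 22. There was no array from saline-administered mice, so the values below are levels under bleomycin and differences between genotypes, not responses to bleomycin.

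Each level is given as log2 of the processed intensity over the 75th percentile of its array, so that a value of 0 lies at that percentile. A level also depends on the probe, so genes were not ranked by level. The 75th percentiles lay between 2489 and 2817 intensity units, 0 spots were saturated, and 67.6% to 72.1% of probes were well above background. All arrays lay on 1 slide with 1 scan time, so no batch could be tested. The methods speak of independent RNA samples, but the labels do not say whether each came from separate mice or from pooled cells, and the p-values therefore measure only the spread between these arrays. The probe for S1pr2 itself read -0.13 and -0.16 in the wild-type samples and 2.67 and 2.54 in those labelled S1pr2-/-. This signal was 6.72-fold higher in the samples labelled S1pr2-/-, against the label (limma, adjusted p = 0.332). Its unadjusted p by limma was the lowest of all tested probes. Over the settings tried, its lowest adjusted p by limma was 0.022. Whether the probe lies in the disrupted part of the gene is not given in the sources used here. Whether the genotype labels of the arrays were exchanged was not tested. In the paper, separate qPCR of BALF cells under bleomycin gave lower Il13 and Alox15 in S1pr2-/- mice, the same direction as in its array table. The directions below are those of the labels, and an exchange would turn each of them.

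The cells were labelled alveolar macrophages. Of 8 macrophage markers, 7 had a named probe, all well above background on all 4 arrays, and their summed signal was 570.2 and 606.5 times the 75th percentile in the wild-type samples and 573.4 and 596.9 times in those labelled S1pr2-/-. Of the 7, 6 overlapped between genotypes and 1, Fabp4, was higher on both arrays labelled S1pr2-/-, by 0.58, with a list median of -0.031. The 5 eosinophil markers were all lower on both arrays labelled S1pr2-/-, 4 of them at an unadjusted p under 0.05 by limma, with summed signals of 2.34 and 3.66 against 5.58 and 13.3 on the wild-type arrays. The eosinophil peroxidase gene Epx was at the lowest allowed value, -6.64, on S1pr2-/- replicate 1. In such bulk RNA, fewer cells of a type and less RNA per cell cannot be told apart. Markers of other cells were also lower in part. The estimate was negative for 6 of 6 T cell markers, with a median of -0.36 and 3 that did not overlap between genotypes, and for 4 of 4 B cell markers, with a median of -0.85 and 0 that did not overlap. Of 6 epithelial markers, 5 were lower on both arrays labelled S1pr2-/-, with a list median of -0.40, where 21.8% of all tested probes were lower on both. Their summed signal was 30.2 and 33.2 in the wild-type samples, 24.3 on S1pr2-/- replicate 1 and 39.9 on S1pr2-/- replicate 2, which was the highest. The summed signal of the T cell markers was 12.0 and 12.9 against 11.8 and 8.66. Of 7 neutrophil markers, 2 were lower on both and 1 was higher on both, with S100a9 at a difference of -1.46. The 2 of 2 tested erythroid markers were higher on both, and the 4 NK cell markers overlapped. Of all tested probes, 21.8% were lower on both and 20.0% higher on both, so the neutrophil counts lie near these shares. At an unadjusted p under 0.05 by limma, 1 neutrophil and 1 epithelial marker were lower, and 0 T cell, 0 B cell, 0 NK cell and 0 erythroid markers differed, where 5.59% of all tested probes were lower and 3.99% higher. None of these lists had a call at an adjusted p under 0.05 (0 by limma). These marker differences run along with every genotype comparison below, and their part in them was not tested.

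The transcription factor p53 is held at a low level by Mdm2 and Mdm4, and it is stabilised when the kinases Atm, Atr, Chek1 and Chek2 report broken or stalled DNA. It then switches on genes that stop the cell cycle, promote apoptosis, adjust metabolism and aid repair. Bleomycin cuts DNA strands, and macrophages are among the cells exposed to it in the lung.

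The promoters of the members were read from RefSeq (GRCm38.p6), as windows of 300 bases that reach from 250 before to 50 after a transcription start, oriented along the gene. Of the 34 members, 28 had an entry, with 36 promoters between them. The consensus of p53, which is made of a repeated decamer, was searched with at most 1 base between the repeats, at most 3 mismatches over 20 positions, and the inner C and G of each repeat required. It was found in 8 of the 36 promoters, which is 22.2%, and in 2.82% of all 32851 promoters. The members were chosen as known p53 genes, so this share describes them and was not tested. The matches are shown so that the members can be compared with the consensus, with the inner 4 bases of each repeat in capitals.
Cdkn1a: gaaCATGtcttgaCATGttc
Ccng1: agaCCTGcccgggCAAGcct
Bax: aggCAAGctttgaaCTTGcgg
Bbc3: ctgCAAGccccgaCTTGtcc
Aen: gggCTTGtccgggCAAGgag
Sesn1: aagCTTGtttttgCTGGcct
Trp53: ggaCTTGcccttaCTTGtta

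Cdkn1a and Ccng1 came closest to the consensus, with 1 mismatch each, a match that 0.11% of all promoters reached. The site of Cdkn1a began 51 bases before its upstream start, and that of Ccng1 began 195 bases before its start. Bax had 2 mismatches, and Bbc3, Aen, Sesn1 and Trp53 had 3. The Aen site was counted in both of its overlapping promoters. A window without a match says only that these letters are not in it.

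The promoters of Cdkn1a at chr17:29090729-29091028 (+ strand) and Ccng1 at chr11:40755237-40755536 (- strand) are shown as the closest matches, with the p53 match in capitals. The promoter of Ddit4 at chr10:59951721-59952020 (- strand) is shown because Ddit4 had the largest difference among the members. Its capitals mark ACGTG, a form of RCGTG (R is A or G), the core of hypoxia response elements. The form GCGTG was not searched or marked, and a part of such elements in the Ddit4 difference was not tested. ACGTG was searched on both strands and was found 1 time in this promoter, in 30.6% of the members' promoters and in 19.6% of all promoters.
Cdkn1a: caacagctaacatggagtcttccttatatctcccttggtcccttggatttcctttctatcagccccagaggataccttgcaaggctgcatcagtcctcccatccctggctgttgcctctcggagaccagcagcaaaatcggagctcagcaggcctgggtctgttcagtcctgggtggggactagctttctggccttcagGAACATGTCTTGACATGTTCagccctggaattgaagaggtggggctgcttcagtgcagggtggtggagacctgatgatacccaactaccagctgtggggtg
Ccng1: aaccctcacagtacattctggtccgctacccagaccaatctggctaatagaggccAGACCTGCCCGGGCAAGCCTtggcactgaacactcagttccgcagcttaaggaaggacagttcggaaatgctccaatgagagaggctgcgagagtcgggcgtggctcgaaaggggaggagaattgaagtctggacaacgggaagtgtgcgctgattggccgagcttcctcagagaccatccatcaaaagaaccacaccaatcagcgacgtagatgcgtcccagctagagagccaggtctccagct
Ddit4: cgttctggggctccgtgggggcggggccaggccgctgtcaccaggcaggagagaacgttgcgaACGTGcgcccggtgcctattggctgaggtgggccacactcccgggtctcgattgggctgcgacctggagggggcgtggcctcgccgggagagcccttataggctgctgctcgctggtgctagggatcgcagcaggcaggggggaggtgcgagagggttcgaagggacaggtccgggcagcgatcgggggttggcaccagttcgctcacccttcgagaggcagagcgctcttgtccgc

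The differences of the genes with a p53 match did not share a sign. Estimated as S1pr2-/- minus wild-type, they were 0.18 for Cdkn1a, 0.04 for Ccng1, 0.22 for Sesn1 and 0.16 for Trp53, and -0.49 for Bax, -0.23 for Bbc3 and -0.20 for Aen. None of these 7 genes had an unadjusted p under 0.05 (0 of 7 by limma), where 5.59% of all tested probes were lower and 3.99% higher.

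Under bleomycin, 33 of the 34 members passed the filter on background and were tested. Brca1, a homologous recombination factor, was the exception: it read -5.25 on wild-type replicate 1, its only value well above background, and -6.64 on the other arrays, so no difference is given for it.

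**Figure D1:**
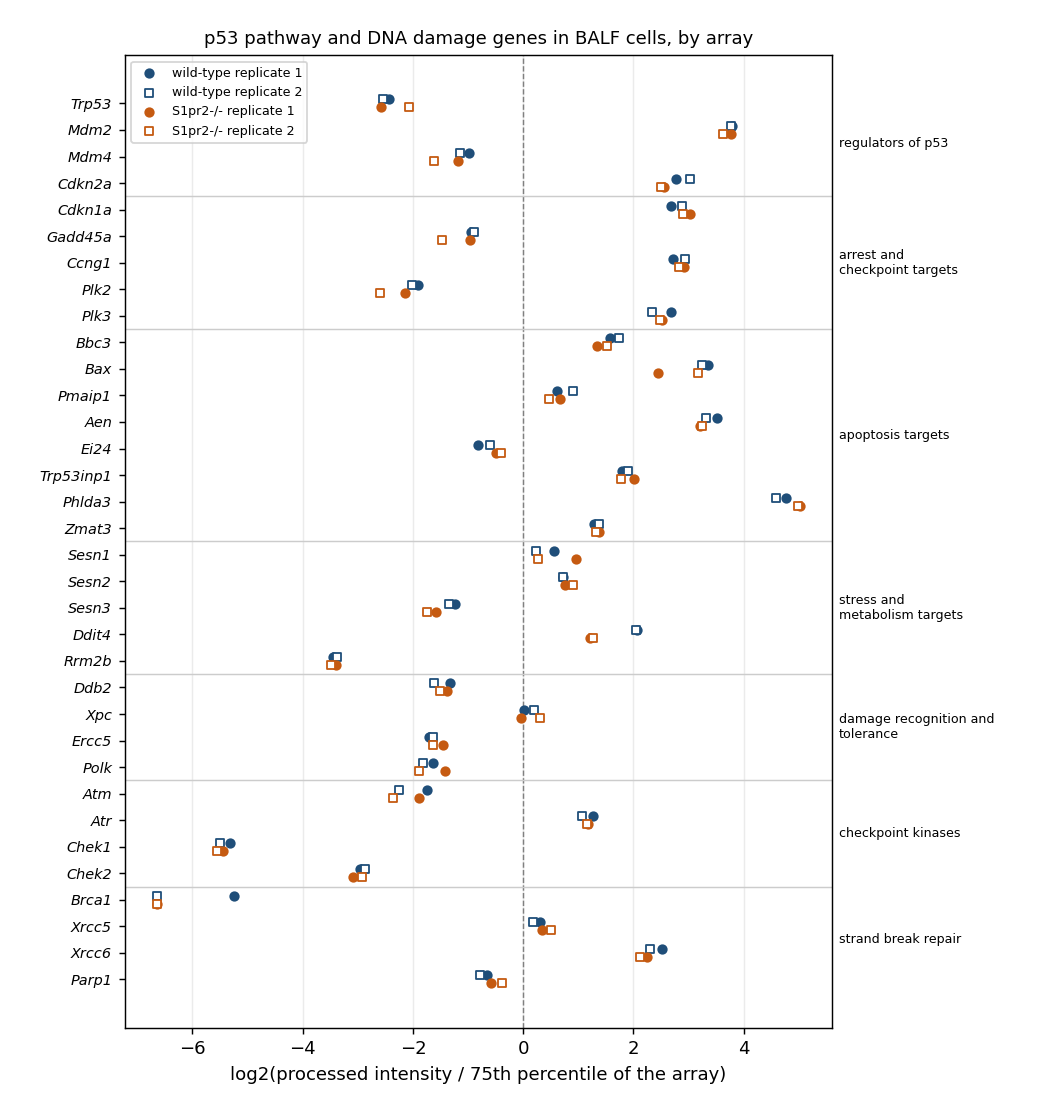
Level of each member on each array, as log2 of the processed intensity over the 75th percentile of the array, with genes grouped by role. Blue points are wild-type arrays and orange points are arrays labelled S1pr2-/- (filled for replicate 1, open for replicate 2); the genotypes separate widely only for Ddit4, while Brca1 sits at -6.64 on 3 arrays.

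Of the 33 members tested, limma with Benjamini-Hochberg adjustment over 27158 probes called 0 at an adjusted p under 0.05, where 0.0% of all probes were called; adjusted p ranged from 0.509 to 1.0. At an unadjusted p under 0.05, 3 members were lower on the arrays labelled S1pr2-/- (9.09%, against 5.59% of all tested probes) and 1 was higher (3.03%, against 3.99%). The lower genes were Ddit4, Sesn3 and Cdkn2a and the higher gene was Phlda3. By the methods' t-test 1 member was lower and 0 were higher at that threshold. Without S1pr2-/- replicate 1 the lower count was 5, and without S1pr2-/- replicate 2 the higher count was 0. These shares lie near those of all probes.

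Both arrays labelled S1pr2-/- were below both wild-type arrays for 11 members (33.3%, against 21.8% of all probes), and above both for 7 (21.2%, against 20.0%). The other 15 members overlapped between genotypes. The median difference of the members was -0.0027, beside -0.0030 over all tested probes, and the median size of the difference was 0.18 beside 0.12. The members also spread more within a genotype, with median differences of 0.17 between the wild-type replicates and 0.16 between those labelled S1pr2-/-, where all probes had 0.12 in both. For 10 members, 30.3%, the genotype difference exceeded the difference between replicates of either genotype, and this held for 28.7% of all tested probes.

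**Figure D2:**
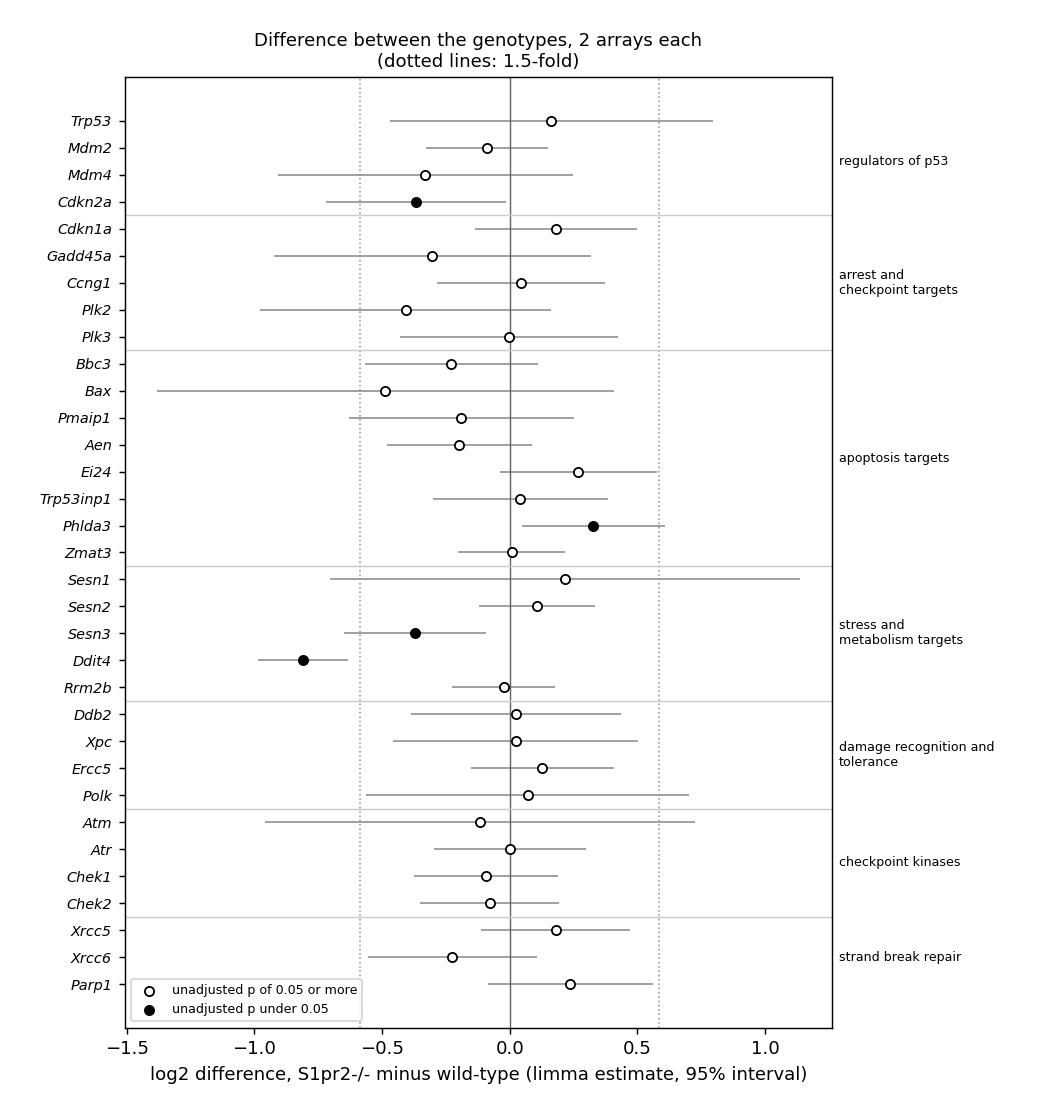
Difference between genotypes for the 33 tested members, as the limma estimate of S1pr2-/- minus wild-type on the log2 scale with its 95% interval, 2 arrays per genotype. Filled points are Ddit4, Sesn3, Cdkn2a and Phlda3, the genes with an unadjusted p under 0.05, and dotted lines mark 1.5-fold, a size that only the Ddit4 estimate passes.

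The intervals rest on the spread between 2 arrays per genotype, so they describe these arrays and not the spread between mice. They were not adjusted for the number of members. For 31 of 33 members the whole 95% interval lay within 2-fold in either direction, the exceptions being Bax and Sesn1, and the same held for 86.6% of all tested probes. For 20 members it lay within 1.5-fold. A difference of 1.5-fold or more was estimated for 1 member, Ddit4, and for 4.76% of all tested probes. With an unadjusted p under 0.05 by limma in addition, 1 member remained, again Ddit4, where 2.11% of all tested probes did. An exact permutation test of 2 arrays against 2 cannot go below a two-sided p of 0.333.

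Ddit4, also called REDD1, encodes an inhibitor of the growth kinase complex mTORC1, and besides p53 it is known to respond to hypoxia, glucocorticoids and nutrient stress. It read 2.06 and 2.05 in the wild-type samples and 1.22 and 1.27 in those labelled S1pr2-/-. Replicates of a genotype lay close together and the genotypes were well apart. The log2 difference was -0.81 (standard error 0.058), which left 57.1% of the wild-type level, a 1.75-fold lower signal. Its unadjusted p by limma, 0.0005, was the 10th lowest of all 27158 probes, yet its adjusted p was 0.509. Over all settings tried the difference stayed between -0.84 and -0.78, with an unadjusted p of at most 0.0068.

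The sestrins are stress-inducible proteins that also restrain mTORC1. Sesn3 was at -1.24 and -1.35 in the wild-type samples and at -1.59 and -1.75 in those labelled S1pr2-/-, so the genotypes did not overlap. Its log2 difference was -0.37 (standard error 0.092, limma unadjusted p = 0.023, adjusted p = 0.509). Sesn1 read 0.57 and 0.24 against 0.96 and 0.27, with most of its spread between the arrays labelled S1pr2-/-. Sesn2 read 0.73 and 0.72 against 0.76 and 0.90, which was higher on both but by only 0.11. The sestrins therefore did not share a direction, and Sesn1 changed sign without S1pr2-/- replicate 1, where its difference was -0.13. The unadjusted p of Sesn3 was 0.061 by the methods' t-test, 0.104 without wild-type replicate 1, 0.061 without wild-type replicate 2 and 0.082 without S1pr2-/- replicate 2.

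Rrm2b, which supplies a p53-inducible ribonucleotide reductase subunit for repair, read -3.45 and -3.38 in the wild-type samples and -3.40 and -3.48 in those labelled S1pr2-/-. The genotypes overlapped, with a difference of -0.024. Its dimmer probe read -6.64, the lowest allowed value, and -6.57 in the wild-type samples, and -6.40 and -6.52 in those labelled S1pr2-/-. Its difference of 0.15 therefore rests on values at or near the lowest allowed one. Quantile normalization turned the sign of the brighter probe.

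Phlda3, a p53 target that competes with Akt for membrane lipids, was the member with the highest difference. It read 4.77 and 4.58 in the wild-type samples and 5.02 and 4.99 in those labelled S1pr2-/-. Both arrays labelled S1pr2-/- were above both wild-type arrays, and the log2 difference was 0.33 (standard error 0.092), a 1.25-fold higher signal. Its unadjusted p by limma was 0.033 and its adjusted p was 0.515. It lost the unadjusted threshold with a p of 0.051 without the filter, 0.076 by the methods' t-test, 0.069 without wild-type replicate 2, 0.136 without S1pr2-/- replicate 1 and 0.116 without S1pr2-/- replicate 2.

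Among the other genes tied to apoptosis, Bax, the pore-forming effector in the mitochondrial membrane, had the largest difference and the widest interval. It read 3.35 and 3.24 on the wild-type arrays, 2.44 on S1pr2-/- replicate 1 and 3.17 on S1pr2-/- replicate 2. The low value of 1 array set its difference of -0.49 (95% interval -1.38 to 0.41). It was -0.12 without S1pr2-/- replicate 1 and -0.85 without S1pr2-/- replicate 2. Bbc3, the BH3-only protein Puma, read 1.57 and 1.74 against 1.33 and 1.52, lower on both arrays labelled S1pr2-/- by an estimated 0.23, with a limma adjusted p of 0.587. Pmaip1, the BH3-only protein Noxa, read 0.62 and 0.90 against 0.67 and 0.47 and overlapped.

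Aen, an exonuclease of apoptotic nuclei, was measured by probes that gave like results. Its brightest probe read 3.51 and 3.32 against 3.20 and 3.24, a difference of -0.20, and its other probe gave -0.21. The brightest probe gave -0.10 without wild-type replicate 1 and -0.29 without wild-type replicate 2. Ei24, a membrane protein of the endoplasmic reticulum, read -0.81 and -0.61 against -0.49 and -0.40, a difference of 0.27 with both arrays labelled S1pr2-/- on the higher side. Trp53inp1 and Zmat3, the latter an RNA-binding zinc finger protein, overlapped between genotypes, with differences of 0.041 and 0.0072. The dimmer probe of Trp53inp1 gave 0.14 and was higher on both arrays labelled S1pr2-/-, with a gap of 0.0051.

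Of the 8 apoptosis genes, 4 had a positive and 4 a negative estimate. Only Phlda3 had an unadjusted p under 0.05 by limma, where 5.59% of all tested probes were lower and 3.99% higher. With the replicate number as a block, the unadjusted p by limma was 0.0497 for Bbc3 and 0.0494 for Ei24.

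Of the genes of cell cycle arrest, Cdkn1a, the cyclin-dependent kinase inhibitor p21 and the best known p53 target, read 2.69 and 2.89 in the wild-type samples and 3.03 and 2.91 in those labelled S1pr2-/-. The values did not overlap, but the gap between genotypes was 0.022 and the gap between the wild-type arrays was 0.20. The difference was 0.18 (95% interval -0.14 to 0.50, limma adjusted p = 0.623). It was 0.083 without wild-type replicate 1 and 0.28 without wild-type replicate 2. A second, dimmer probe of Cdkn1a, which carries the accession of another transcript, gave a difference of 0.0083 with overlapping genotypes. Ccng1, cyclin G1, read 2.71 and 2.93 against 2.91 and 2.82 and overlapped.

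Gadd45a, a growth arrest and repair protein, read -0.95 and -0.89 in the wild-type samples and -0.97 and -1.47 in those labelled S1pr2-/-. Plk2, a polo-like kinase, read -1.91 and -2.01 against -2.15 and -2.60. Both were lower on the arrays labelled S1pr2-/-, and in both S1pr2-/- replicate 2 lay lowest; the differences of -0.30 and -0.41 had limma adjusted p-values of 0.656 and 0.573. Without S1pr2-/- replicate 2 they were -0.053 and -0.18, and without S1pr2-/- replicate 1 they were -0.55 and -0.63. Plk3 read 2.67 and 2.34 against 2.53 and 2.48, and its difference of -0.0027 changed sign with the settings. With all 4 arrays, 0 of these 5 genes had an unadjusted p under 0.05 by limma, where 5.59% of all tested probes were lower and 3.99% higher.

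The regulators of p53 were led by Cdkn2a, the locus of the cell cycle inhibitor p16Ink4a and of p19Arf, which blocks Mdm2. Its brightest probe read 2.76 and 3.02 in the wild-type samples and 2.55 and 2.50 in those labelled S1pr2-/-. These values did not overlap, and the difference was -0.37 (standard error 0.116, limma unadjusted p = 0.045, adjusted p = 0.519). The other probe gave -0.29 with overlapping genotypes, and the unadjusted p of the mean of both probes was 0.176. The unadjusted p was 0.056 by quantile normalization, 0.088 by the percentile over detected probes, 0.077 without the filter and 0.108 by the methods' t-test. It was 0.075 without wild-type replicate 2, 0.141 without S1pr2-/- replicate 1, 0.177 without S1pr2-/- replicate 2 and 0.074 with the replicate number as a block.

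Trp53, the p53 gene, read -2.43 and -2.54 in the wild-type samples and -2.57 and -2.07 in those labelled S1pr2-/-, so the genotypes overlapped, and the sign of its difference of 0.16 turned without S1pr2-/- replicate 2. Mdm2, the ligase that marks p53 for degradation and is itself a p53 target, was even across the arrays, at 3.79 and 3.77 against 3.77 and 3.62. Its 95% interval ran from -0.33 to 0.15. Mdm4, which covers the activation domain of p53, read -0.98 and -1.15 against -1.17 and -1.61, lowest on S1pr2-/- replicate 2. Its probes gave differences of -0.33 and -0.22, and the limma adjusted p of the brighter was 0.623. The brighter probe gave -0.11 without S1pr2-/- replicate 2 and -0.55 without S1pr2-/- replicate 1. p53 is mainly regulated as a protein, which these arrays did not measure.

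**Figure D3:**
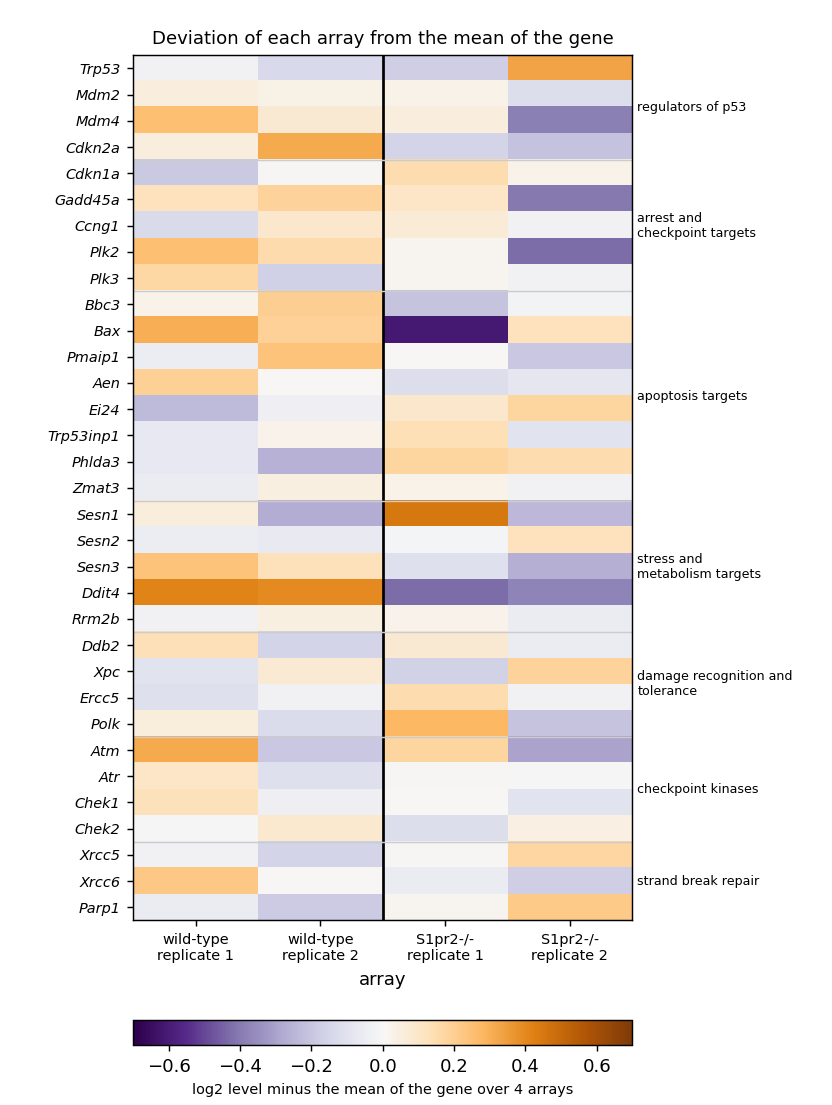
Deviation of each array from the mean of each of the 33 tested members over 4 arrays, on the log2 scale, with wild-type arrays left and arrays labelled S1pr2-/- right of the black line. Ddit4 and Sesn3 are higher on both wild-type arrays, while Bax stands out on S1pr2-/- replicate 1 and Gadd45a, Plk2 and Mdm4 on S1pr2-/- replicate 2.

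The kinases that signal damage to p53 overlapped between genotypes in all 4 cases. Of all tested probes, 21.8% were lower on both arrays labelled S1pr2-/- and 20.0% higher on both, and the others overlapped. Atm, which responds to double-strand breaks, read -1.75 and -2.26 in the wild-type samples and -1.88 and -2.36 in those labelled S1pr2-/-, and Atr, which responds to stalled replication, read 1.27 and 1.06 against 1.18 and 1.16. Their downstream kinase Chek1 lay between -5.55 and -5.32, and Chek2 lay between -3.08 and -2.87. The differences were -0.12 for Atm, 0.0011 for Atr, -0.093 for Chek1 and -0.079 for Chek2. The intervals of Atr, Chek1 and Chek2 lay within 1.5-fold, whereas that of Atm ran from -0.96 to 0.72 and its other probe gave 0.032.

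In the group that recognises or tolerates DNA lesions, 4 of 4 estimates were positive and small, from 0.024 to 0.13. Xpc, which detects distorted DNA, read 0.02 and 0.19 against -0.04 and 0.30, and Ddb2, which binds ultraviolet lesions, read -1.32 and -1.62 against -1.38 and -1.51. Both overlapped. Ercc5, the endonuclease XPG, read -1.71 and -1.63 against -1.46 and -1.63, higher on both arrays labelled S1pr2-/- by a margin close to 0. Polk, a translesion polymerase, read -1.63 and -1.82 against -1.41 and -1.90, with its widest spread between the arrays labelled S1pr2-/-. Leaving out wild-type replicate 2 or S1pr2-/- replicate 1 turned the sign of Polk and of Ddb2. Leaving out wild-type replicate 1 or S1pr2-/- replicate 2 turned the sign of Xpc. The other probe of Polk gave -0.0077.

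Among the genes of strand break repair, Parp1, the sensor of strand breaks, read -0.65 and -0.79 in the wild-type samples and -0.58 and -0.39 in those labelled S1pr2-/-. The Ku subunits, which bind double-strand ends together, differed in sign: Xrcc5, Ku80, read 0.31 and 0.18 against 0.35 and 0.51, and Xrcc6, Ku70, read 2.51 and 2.30 against 2.24 and 2.12. None of the 3 overlapped between genotypes, where 21.8% of all tested probes were lower on both and 20.0% higher on both. The differences were 0.24, 0.18 and -0.22. With an array left out they ran from 0.14 to 0.33, from 0.10 to 0.26 and from -0.33 to -0.12. All 3 intervals included 0, and the limma adjusted p-values were 0.567, 0.603 and 0.585.

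The wider pathway was read from lists of 47 other p53 targets and 80 genes of DNA damage signalling and repair, of which 46 and 78 were tested. By limma, 0 were called at an adjusted p under 0.05. At an unadjusted p under 0.05, 2 of these 124 genes were lower and 9 were higher, where 5.59% and 3.99% of all probes were. The methods' t-test gave 1 lower and 12 higher. Leaving out wild-type replicate 1, S1pr2-/- replicate 1 and S1pr2-/- replicate 2 in turn gave 4, 5 and 3 higher genes, and the lower count was 1 without wild-type replicate 2 and 6 without S1pr2-/- replicate 2. Their median difference was 0.0077.

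Of the other p53 targets, Gstm1, Dcxr, Psrc1, Trp73 and Rb1 were among the 6 with the lowest p. Gstm1, a glutathione transferase of a family with near-identical members that a probe may not tell apart, gave 0.38, and Dcxr, a carbonyl reductase, gave 0.41. Trp73, a relative of p53, and Rb1, the retinoblastoma protein, gave 0.19 and 0.20, and Psrc1, a spindle protein, gave -0.27. Except for Psrc1 these were higher on both arrays labelled S1pr2-/-, but genes picked by low p tend to separate by that choice alone. Of the 46 tested genes of this list, 12 were higher on both, 12 lower on both and 22 overlapped. Of all tested probes, 20.0% were higher on both and 21.8% lower on both.

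Of the genes of signalling and repair, Parp3, Xrcc2, Fanca, Xrcc1, Xpa and Nbn had the lowest p. Fanca, a core protein of the Fanconi anemia pathway, read -0.15 and 0.03 in the wild-type samples and -1.02 and -0.62 in those labelled S1pr2-/-. It was lower on both, with a difference of -0.76, and it was the only gene of this list past 1.5-fold. The others were higher on both arrays labelled S1pr2-/-, by 0.35 for Parp3, 0.33 for Xrcc2, 0.20 for Xrcc1, 0.19 for Xpa and 0.17 for Nbn. Genes picked by low p tend to separate by that choice alone. Of the 78 tested genes of this list, 20 were higher on both, 9 lower on both and 49 overlapped. Of all tested probes, 20.0% were higher on both and 21.8% lower on both. All 6 had limma adjusted p-values between 0.509 and 0.535.

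**Figure D4:**
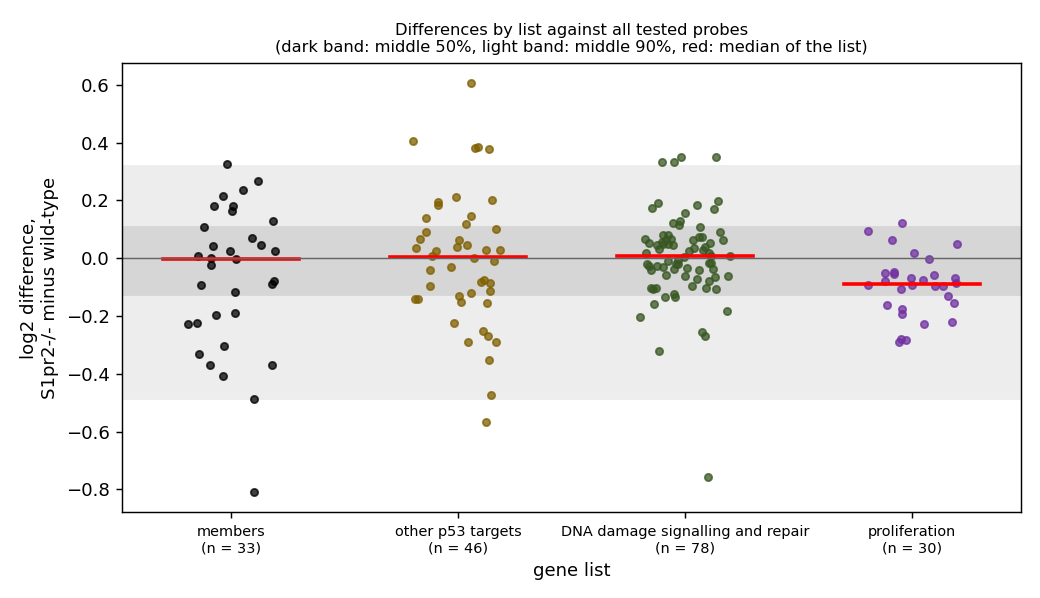
Log2 difference S1pr2-/- minus wild-type of each tested gene, for the 33 members, 46 other p53 targets, 78 genes of damage signalling and repair and 30 proliferation genes. The dark band holds the middle 50% of all 27158 tested probes (-0.13 to 0.11), the light band runs from their 5th to their 95th percentile (-0.49 to 0.32) and red lines are list medians, all of which lie inside the dark band.

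Proliferation genes, several of which p53 signalling holds down, were read beside the members. Of 30 tested, 0 had an unadjusted p under 0.05 by limma, where 5.59% of all tested probes were lower and 3.99% higher. The median difference was -0.089, and 25 of the 30 estimates were negative, where 50.6% of all tested probes had a negative one. Mki67, the Ki-67 antigen, read 2.09 and 2.13 on the wild-type arrays, 1.63 on S1pr2-/- replicate 1 and 2.25 on S1pr2-/- replicate 2. Top2a, Rrm2, Mcm2 and Ccnb1 had the same order, with S1pr2-/- replicate 1 lowest and S1pr2-/- replicate 2 highest. Their differences lay between -0.19 and -0.0043. The median difference of the list between the arrays labelled S1pr2-/- was 0.49, against 0.10 between the wild-type arrays and a median size of 0.094 between genotypes. Pcna, the replication clamp, read 4.73 and 4.58 against 4.56 and 4.55, and here the arrays labelled S1pr2-/- lay close together.

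**Figure D5:**
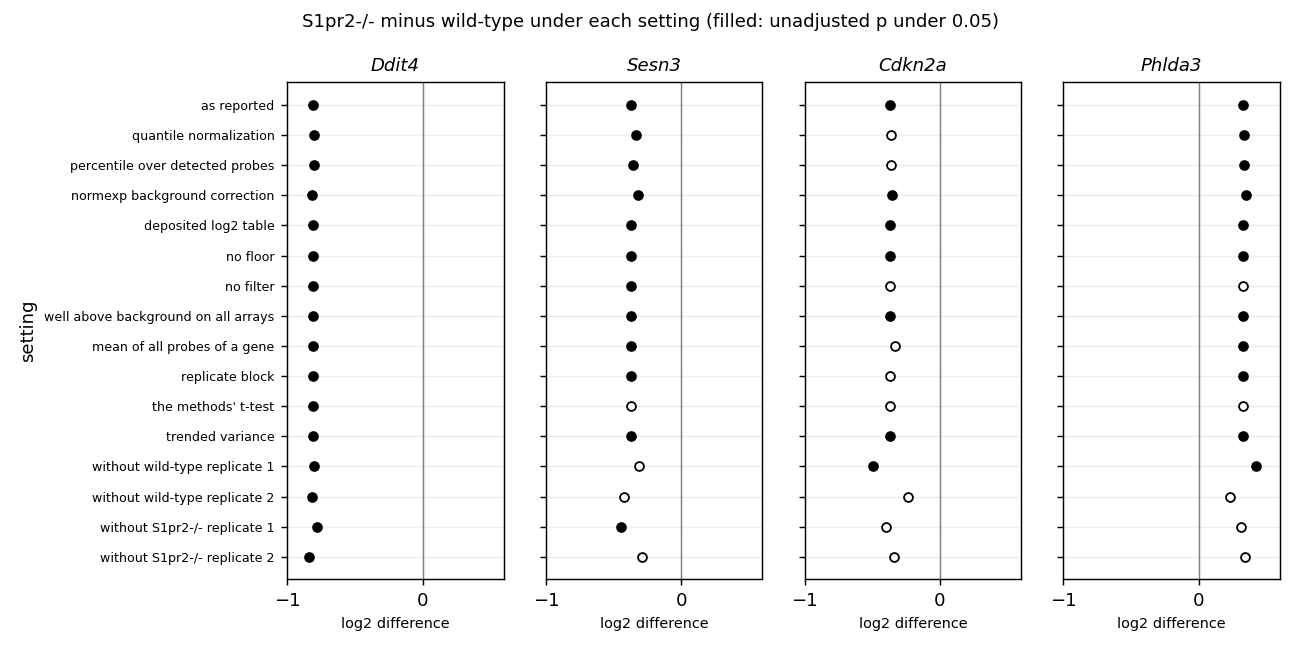
Log2 difference S1pr2-/- minus wild-type of Ddit4, Sesn3, Cdkn2a and Phlda3 as reported and under each other setting, with filled points at an unadjusted p under 0.05. No gene changes sign; Ddit4 is filled throughout, between -0.84 and -0.78, and the other genes lose that threshold by the methods' t-test, when some single arrays are left out and, for Cdkn2a and Phlda3, under other settings with all 4 arrays.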

How the data were processed

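Total RNA of BALF cells was hybridized as Cy3-labeled cRNA to 4 one-color Agilent whole mouse genome arrays. The authors deposited the scanner output, in which the processed intensity of each spot is already corrected for background, and a table of normalized log2 values. The methods name Feature Extraction 10.7.3.1, whereas the file headers name 11.0.1.1 and the scanner G2505C. The deposited log2 table, with column medians of -0.058 to 0.023, equals the values computed here without a floor and centred per gene on the mean of the wild-type arrays, within 0.01 for 100% of 39359 probes once an offset no larger than 0.0123 is taken off each array. It served as one of the alternatives.

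The processed intensity was divided by the 75th percentile of its array, a floor of 0.01 was set, and log2 was taken. Flagged outlier spots (115 to 273 per array) were removed. Of 39429 probes, 69.6% carried an accession found in the RefSeq tables used (GRCm38.p6). Tests were run with limma 3.58.1 (lmFit, eBayes; R 4.3.3) on the 27158 probes that had a value on every array and stood well above background on both replicates of at least one genotype, with Benjamini-Hochberg adjustment over all of them. Python 3.11.15 was used for tables and figures. Arrays give no depth, and their number limits the precision. In simulated data of 27158 probes for 2 arrays against 2, 200 probes were given a log2 change of 2. Of these, 145 were called, and 8 of the unchanged probes were called as well. That change was larger than any member difference, of which the largest was -0.81 for Ddit4. The simulation therefore does not show how often differences of the members' size would be called. On the real arrays, limma called 0 of the 27158 probes at an adjusted p under 0.05.

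All 34 members are named. Of the wider lists the 6 genes with the lowest unadjusted p are named, except 1 that is not reported here, and of the proliferation list Mki67, Top2a, Pcna, Rrm2, Mcm2 and Ccnb1. Members and lists were chosen with earlier results of these data known. The lists of neutrophil, T cell, B cell, NK cell, epithelial and erythroid markers were read in the same way. The alternatives were quantile normalization, a percentile taken over detected probes, background correction by normexp (offset 50, on the median signal because the mean signal was not among the columns used), the deposited log2 table, no floor, no filter or a stricter one, the mean of a gene's probes, the replicate block, the methods' t-test, a trended variance, 1.5-fold in addition, and each array left out.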

Additional observations from a re-analysis of the deposited data

How the results depend on the processing

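With 2 arrays per genotype, no member difference passed the adjusted threshold under any setting tried (0 members called), the lowest adjusted p being 0.220 for Ddit4 without the filter. At an unadjusted p under 0.05, the number of lower members was 3 and became 2 by quantile normalization, by the percentile over detected probes, without the filter and by the mean of a gene's probes, 1 by the methods' t-test, 1 with a 1.5-fold change in addition, and 2 to 5 with an array left out. The number of higher members was 1 and became 0 without the filter, 0 by the methods' t-test, 0 with 1.5-fold in addition, and 0 to 1 with an array left out. The members past this threshold changed with the array left out. Such a fit leaves 1 array in a genotype, so its replicate spread comes from the other genotype alone. All p-values and counts given here with an array left out have this limit. The higher member was Phlda3 without wild-type replicate 1, Ei24 without wild-type replicate 2 and Trp53 without S1pr2-/- replicate 1. The lower ones were Ddit4 in all 4 cases, with Cdkn2a without wild-type replicate 1, Aen without wild-type replicate 2, Bax without S1pr2-/- replicate 2, and Sesn3, Gadd45a, Plk2 and Mdm4 without S1pr2-/- replicate 1. The replicate numbers are not stated to pair the arrays. Over the tested probes, the deviations of the replicates numbered 1 from their genotype means correlated at 0.187. With 2 arrays per genotype, the replicates numbered 2 give the same value by construction. With the replicate number as a block there were 2 higher members, Phlda3 and Ei24, and Bbc3 replaced Cdkn2a among the 3 lower ones. Of the other p53 target and repair genes, 2 were lower, with 1 by the methods' t-test and 1 to 6 with an array left out. Among them 9 were higher, with 15 by the percentile over detected probes, 4 by normexp, 5 by the deposited log2 table, 5 without the floor, 5 among probes well above background on all arrays, and 3 to 6 with an array left out.

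Of 33 members, 19 kept the sign of their difference under all settings tried and 14 did not, the largest of these differing by 0.22. Without leaving out an array, Plk3 became 0.0074 by the percentile over detected probes and 0.085 by normexp, Zmat3 became -0.0078 by normexp, Rrm2b became 0.059 by quantile normalization and 0.062 by the mean of its probes, Atr became -0.00017 by the deposited table, and Chek1 became 0.019 by quantile normalization and 0.0 by the percentile over detected probes. With an array left out, the difference ran from -0.090 to 0.41 for Trp53, from -0.067 to 0.16 for Ccng1, from -0.17 to 0.16 for Plk3, from -0.077 to 0.16 for Trp53inp1, from -0.041 to 0.056 for Zmat3, from -0.13 to 0.56 for Sesn1, from -0.062 to 0.015 for Rrm2b, from -0.12 to 0.17 for Ddb2, from -0.15 to 0.19 for Xpc, from -0.17 to 0.31 for Polk, from -0.37 to 0.14 for Atm, from -0.10 to 0.11 for Atr and from -0.16 to 0.00088 for Chek2. The cause was not tested.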

Other observations

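Hypoxia, glucocorticoids and the stress factor Atf4 are known to act on Ddit4. Genes known to respond to them were read after the Ddit4 values had been seen. Their part in the Ddit4 difference was not tested, and in bulk RNA it cannot be told apart from a shift in cell types. Of 12 hypoxia response genes, 4 were lower and 2 were higher on the arrays labelled S1pr2-/- at an unadjusted p under 0.05 by limma, where 5.59% and 3.99% of all tested probes were, and 0 passed the adjusted threshold. The lower genes were Slc2a1, Vegfa, Adm and Ankrd37. The largest difference of the list was -1.20, for the prolyl hydroxylase gene Egln3, at an unadjusted p of 0.081 by limma, and it was the only one past 1.5-fold. The glucose transporter gene Slc2a1 read 2.77 and 2.79 in the wild-type samples and 2.41 and 2.35 in those labelled S1pr2-/-, and the growth factor gene Vegfa read -3.04 and -2.80 against -3.41 and -3.56. The mitophagy receptor gene Bnip3 and the kinase gene Pdk1 were on the higher side, by 0.27 and 0.31. Of the 12 genes, 6 were lower on both arrays labelled S1pr2-/-, 3 were higher on both and 3 overlapped, where 21.8% and 20.0% of all tested probes were lower and higher on both.

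Of 9 genes of the Atf4 response, 2 were lower at an unadjusted p under 0.05 by limma, where 5.59% of all tested probes were, and 0 were higher. Atf4 itself read 5.23 and 5.16 in the wild-type samples and 4.90 and 4.97 in those labelled S1pr2-/-, and the asparagine synthetase gene Asns read 0.08 and 0.37 against -0.37 and -0.19. The remaining 7 genes overlapped between genotypes, where 21.8% of all tested probes were lower on both arrays labelled S1pr2-/- and 20.0% higher on both. Of 7 glucocorticoid response genes, 0 had an unadjusted p under 0.05 by limma, where 5.59% of all tested probes were lower and 3.99% higher. Their differences ran from -0.52 to 0.25, with 1 gene higher on both arrays labelled S1pr2-/- and 6 overlapping. Among them Fkbp5 gave a difference of 0.049 and Tsc22d3 gave -0.089.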
